A study of Homo sapiens with 6 samples.

Results

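CAD, PCNX3 and DGCR8 are 3 protein-coding genes with 11 or more SF3B4 peaks each in HEK293T cells. They were selected on that peak count, and together they held 35 of the 3660 SF3B4 peaks, which fell in 1883 genes. A peak was counted in a gene when its midpoint lay between the annotated ends of the gene on the same strand. Just inside the limit, DGCR8, HNRNPH1 and HNRNPU had 11 peaks each. Just outside it, FBRSL1, MIR17HG, PRRC2B and SRSF11 had 10 each. FANCA (18 peaks), CAD (12) and PCNX3 (12) stood above them, so CAD, PCNX3 and DGCR8 are 3 of the 6 genes with at least 11. With peaks within 10 nt of each other merged, DGCR8 had 10 and would fall below the limit, while CAD and PCNX3 kept 12. Merged counts of the other genes are not given here. Because the count chose the genes, their number of peaks, the share of their introns with a peak and the size of the peaks are given as a description, with no test.

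The peaks came from eCLIP, in which a protein is crosslinked to RNA in cells and pulled down, and the bound RNA fragments are sequenced and set against an input library. HEK293T is a transformed human cell line of embryonic kidney origin. The series held 6 libraries in 3 groups of 2: SF3B4, recovered with an antibody to the protein; G4PID, an artificial enzyme that biotinylates what lies near G-quadruplexes, recovered through its HA tag; and input, with no antibody. The protocol in the labels has cells take up, by transfection, a plasmid for G4PID or for the untargeted ligase miniTurboID and receive 500 µM biotin for 30 min. Every library carries this text, so it does not settle which plasmid, if any, the SF3B4 and input cells held. The labels do not state if the libraries within a group are separate cultures. Each antibody has a single peak list and no library has values of its own in the files analysed here. The spread between replicates and the read depth are therefore unknown, RNA amount was not measured, and the cell line could not be checked against marker genes. All coordinates are on hg38.

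SF3B4 is a subunit of SF3b, the part of the U2 small nuclear ribonucleoprotein that holds the branch point adenosine of an intron during spliceosome assembly. The branch point lies a short way upstream of the acceptor, the 3' splice site where the intron ends and the next exon begins. CAD encodes the large cytosolic enzyme that carries out the opening steps of pyrimidine synthesis, as carbamoyl phosphate synthetase, aspartate transcarbamylase and dihydroorotase. DGCR8 encodes the double-stranded RNA-binding partner of the nuclease Drosha in the Microprocessor, which cuts primary microRNA transcripts in the nucleus. Hairpins in the DGCR8 mRNA are themselves known substrates of the Microprocessor. PCNX3 encodes a member of the pecanex family of multi-pass membrane proteins, whose function in human cells is little known.

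SF3B4 peaks in these genes stood almost wholly at intron ends. An intron of the principal transcript was taken as bound when a peak midpoint lay between 100 nt upstream and 20 nt downstream of its acceptor. By this rule 33 of the 90 introns were bound and 57 were not. DGCR8 had 10 of 13 introns bound (76.9%, 95% Wilson interval 49.7 to 91.8%). PCNX3 had 12 of 34 (35.3%, 21.5 to 52.1%) and CAD 11 of 43 (25.6%, 14.9 to 40.2%). The background was 10.9% of 26867 introns in protein-coding genes with an SF3B4 peak, and 1.65% of 184980 introns in all protein-coding genes. The genes were picked for many peaks, so nothing is read from shares above the background. The intervals cover counting error only, and introns of 1 gene are not replicates.

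**Figure D1:**
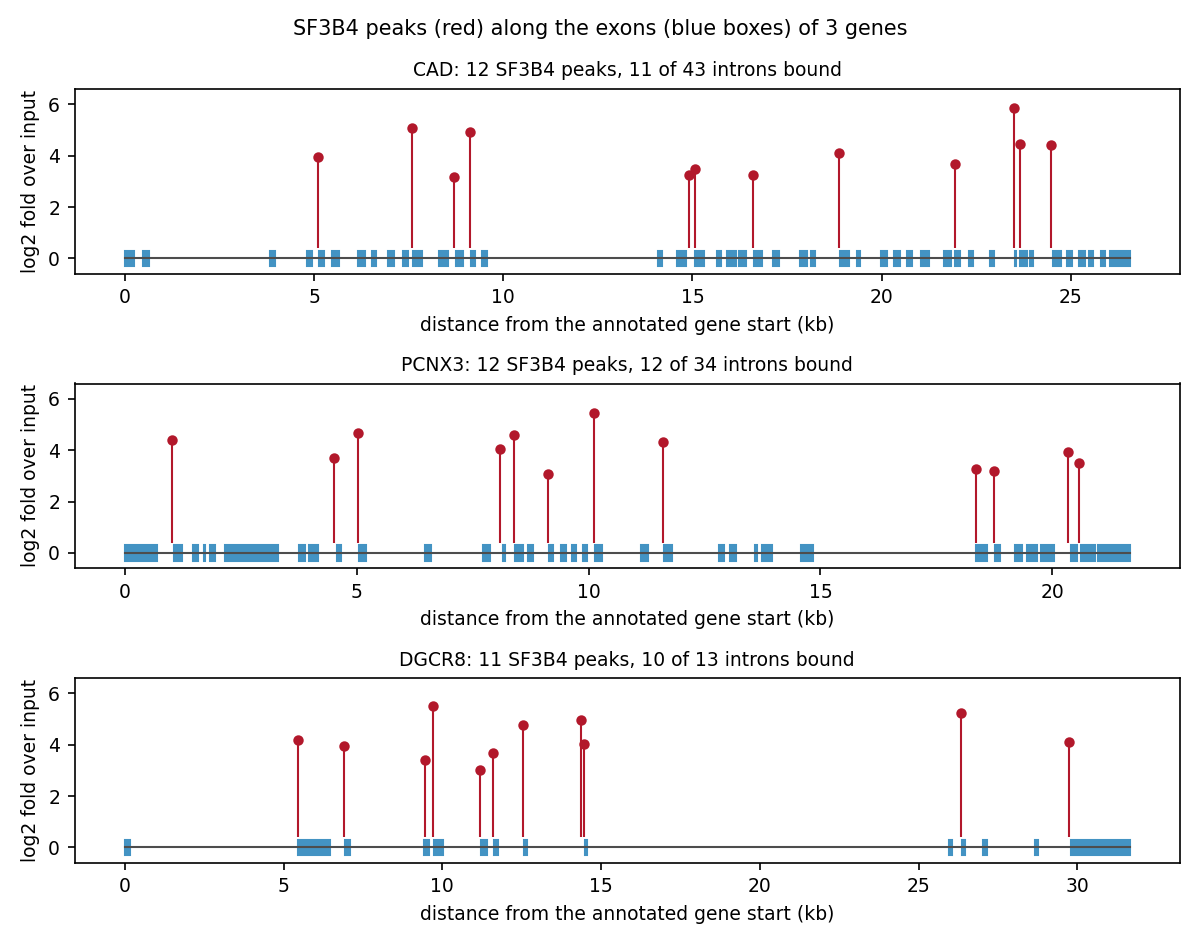
SF3B4 peaks along CAD, PCNX3 and DGCR8. The horizontal axis is the distance from the annotated gene start in kb, blue boxes are exons of the principal transcript, and each red pin is 1 peak at its midpoint with the authors' log2 fold over input as its height. Pins stand next to the left edge of exons in all 3 genes, and the longest introns of CAD and DGCR8 carry none.

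Few intron ends could be read as sequence, because no genome sequence was used here and an intron was known only where another GENCODE transcript, such as a retained-intron form, covers it. At least 20 nt next to the acceptor were known for 5 of the 33 bound and 6 of the 57 unbound introns. The last 100 nt, or the whole of a shorter intron, were known for 3 bound and 3 unbound introns. The bound ones are printed to show what a peak covers: bases inside an SF3B4 peak are in capitals, and each line ends with the last base of the intron. All are from GENCODE 29 on the plus strand, at chr2:27226425-27226524, chr11:65634079-65634125, chr22:20087062-20087161, chr22:20089876-20089975 and chr22:20106567-20106591 in the order printed.
CAD intron 13: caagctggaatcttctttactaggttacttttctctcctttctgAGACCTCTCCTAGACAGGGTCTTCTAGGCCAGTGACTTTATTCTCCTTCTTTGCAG
PCNX3 intron 27: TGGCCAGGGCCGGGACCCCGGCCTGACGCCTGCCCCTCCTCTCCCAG
DGCR8 intron 2: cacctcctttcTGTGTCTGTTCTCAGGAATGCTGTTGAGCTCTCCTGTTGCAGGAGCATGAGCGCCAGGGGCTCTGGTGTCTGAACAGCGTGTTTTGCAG
DGCR8 intron 4: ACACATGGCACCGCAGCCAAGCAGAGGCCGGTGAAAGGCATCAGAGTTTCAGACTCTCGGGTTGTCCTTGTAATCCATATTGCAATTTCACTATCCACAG
DGCR8 intron 10: ATCTGTTGTCTGTTTTCTCTTaaag

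Of the 6 unbound introns, the 5 with at least 40 known nt are shown for comparison, in lower case because no peak covers them. They lie at chr2:27233537-27233625, chr2:27242776-27242871, chr11:65625127-65625170, chr11:65626853-65626903 and chr22:20108790-20108889 in the order printed.
CAD intron 20: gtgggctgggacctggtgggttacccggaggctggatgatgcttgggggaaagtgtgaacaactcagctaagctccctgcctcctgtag
CAD intron 41: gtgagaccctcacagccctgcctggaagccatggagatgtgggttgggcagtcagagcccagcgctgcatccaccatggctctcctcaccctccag
PCNX3 intron 16: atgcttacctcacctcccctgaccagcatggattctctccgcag
PCNX3 intron 20: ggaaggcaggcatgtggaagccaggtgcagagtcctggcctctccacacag
DGCR8 intron 12: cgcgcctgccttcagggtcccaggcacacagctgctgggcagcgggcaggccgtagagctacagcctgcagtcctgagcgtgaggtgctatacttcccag

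The share of C and T in the last 40 nt, where the pyrimidine tract lies, did not separate the few known bound ends from the unbound ones. C and T together made up 65% of the last 40 nt in CAD intron 13, 65% in PCNX3 intron 27, 62.5% in DGCR8 intron 4 and 47.5% in DGCR8 intron 2. In the unbound introns the share was 67.5% in CAD intron 41, 67.5% in PCNX3 intron 16, 52.5% in CAD intron 20, 52.5% in DGCR8 intron 12 and 47.5% in PCNX3 intron 20. The lowest value of both classes was the same. The median in other genes with an SF3B4 peak was 62.5% in 1296 bound and 62.5% in 4182 unbound introns. Over the last 21 nt the share was 81.0% in CAD intron 13 and in PCNX3 intron 27, above every known unbound end (52.4 to 71.4%). In DGCR8 introns 2, 4 and 10 it was 52.4%, 61.9% and 66.7%, within the range of the unbound ends. CTNA (N for any base), a core of the human branch point consensus, was searched on the sense strand. The last 40 nt held it in 2 of the 4 bound and 4 of the 5 unbound introns, against 63.3% of bound and 61.8% of unbound introns in other genes. It began 20 nt upstream of the exon in DGCR8 intron 2 and 25 nt upstream in PCNX3 intron 27, inside the peaks. A quadruplex motif was sought on the same strand as 4 runs of 3 or more G, with 1 to 7 nt between neighbouring runs. It was found in 0 of the 3 bound and 0 of the 3 unbound ends known over the full window, against 2.49% of 1085 bound and 4.03% of 3249 unbound ends in other genes. No match says only that these letters are not in this window. Introns covered by another transcript need not stand for the rest.

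CAD lies on the plus strand, at chr2:27217390-27243943. Its principal transcript has 44 exons, and its 43 introns are short, with a median of 224 nt. The bound introns were numbers 4, 10, 12, 13, 17, 21, 25, 32, 35, 36 and 38, counted from the 5' end. They were scattered along the gene, with 6 among the first 21 introns and 5 among the last 22. Neighbouring introns were both bound in 2 places, at introns 12 and 13 and at introns 35 and 36.

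In the first part of CAD, intron 4 (182 nt) carried a peak of 35 nt with its midpoint 36 nt upstream of the first exon base and a log2 fold over input of 3.94. Intron 10 (133 nt) carried the narrowest peak of the gene, of 24 nt, centred 25 nt upstream with a log2 fold of 5.09. Both peaks ended before the exon. Intron 12 (204 nt) was covered over a wider stretch, by a peak of 101 nt centred 39 nt upstream. This peak had the lowest log2 fold of CAD, 3.17, together with its highest −log10 p, 23.1. Intron 13 (205 nt) had a log2 fold of 4.91 in a peak of 108 nt centred 3 nt upstream. Intron 17 (223 nt) carried a pair of peaks 54 nt apart. The nearer, of 145 nt, was centred 2 nt upstream (log2 fold 3.47), and the other, of 31 nt, 144 nt upstream (3.24). The far one was the only CAD peak outside the window at an acceptor. Intron 21 (199 nt) carried a peak of 128 nt centred 19 nt upstream (3.24).

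In the second part of CAD, intron 25 was the longest bound intron, at 643 nt, with a peak centred 20 nt upstream and a log2 fold of 4.10. Intron 32, at 98 nt the shortest bound one, had a peak centred 10 nt upstream (3.67). Bound CAD introns thus spanned 98 to 643 nt. Intron 35 (549 nt) had the highest log2 fold of the gene, 5.86, in a peak at chr2:27240859-27240899 centred 32 nt upstream. The exon after it is 45 nt long, and the next intron, number 36 (102 nt), had a peak centred 9 nt upstream with a log2 fold of 4.47. These peaks lay 104 nt apart on either side of that short exon. Intron 38 (514 nt) had a peak of 29 nt centred 36 nt upstream (4.40). Among unbound introns were the 2 of CAD over 2000 nt, intron 2 (3201 nt) and intron 15 (4505 nt), and also intron 20, the shortest of the gene at 89 nt.

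PCNX3 lies on the plus strand, at chr11:65615773-65637439. Its principal transcript has 35 exons, and its 34 introns had a median of 235.5 nt. Each of its 12 peaks stood at an acceptor of its own. The bound introns were numbers 1, 8, 9, 12, 13, 15, 19, 21, 27, 28, 32 and 33, with 6 in the first 17 introns and 6 in the last 17. Of these 12, 8 formed 4 pairs of neighbours.

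Intron 1 of PCNX3 (359 nt) had a narrow peak of 32 nt centred 41 nt upstream, with a log2 fold of 4.40 and the lowest −log10 p of the gene, 5.38. No other intron was bound before intron 8 (406 nt), whose peak was centred 51 nt upstream (log2 fold 3.71). Intron 9 (401 nt) had a peak centred 35 nt upstream (4.69). Introns 12 and 13 flank an exon of 33 nt, the shortest exon beside a bound intron in the 3 genes. Intron 12 (284 nt) had a peak of 142 nt centred 58 nt upstream (4.03), the farthest upstream in PCNX3. Intron 13 (233 nt) had a peak of 38 nt centred 24 nt upstream (4.58). The wide peak reached into that exon, while the narrow one lay at the far end of intron 13. Intron 15 (343 nt) had the lowest log2 fold of the gene, 3.08, with a peak centred 18 nt upstream.

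Intron 19 (159 nt) had the highest log2 fold of PCNX3, 5.47, in a peak at chr11:65625842-65625917 centred 25 nt upstream. Intron 21 (356 nt) had a peak of the same width, 76 nt, centred 19 nt upstream (4.34). Intron 27, at 3521 nt the longest of the gene, was bound by a peak of 110 nt centred 1 nt upstream (3.28). Its neighbour, intron 28 (181 nt), had a peak centred 25 nt upstream (3.20). Long and short introns were thus bound side by side. Intron 32 (370 nt) had a peak centred 54 nt upstream (3.95). The peak at intron 33, chr11:65636283-65636428, was 146 nt wide and covered the whole intron of 83 nt and parts of the exons on both sides. It was centred 36 nt upstream, with a log2 fold of 3.50 and the highest −log10 p of the gene, 21.5.

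DGCR8 lies on the plus strand, at chr22:20080232-20111877. Its principal transcript has 14 exons and longer introns than the other 2 genes, with a median of 1021 nt. Introns 1 to 8 were all bound, in an unbroken run, and introns 10 and 13 were bound as well. The unbound introns were number 9 (11381 nt), number 11 (572 nt) and number 12 (1491 nt).

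Intron 1 of DGCR8 (5303 nt), the longest bound intron of the 3 genes, had a peak of 127 nt whose midpoint lay 12 nt past the first exon base, with a log2 fold of 4.17. Intron 2 (478 nt) had a peak of the same width centred 26 nt upstream, with a log2 fold of 3.94 and the highest −log10 p of the gene, 17.2. At intron 3 (2347 nt) the midpoint was again exonic, 2 nt past the first base (log2 fold 3.42). The peaks at introns 1 and 3 were the only 2 of the 35 with a midpoint in an exon. Intron 4 (164 nt), the shortest of the gene, had the highest log2 fold of DGCR8, 5.53, in a peak at chr22:20089841-20090003 centred 54 nt upstream. At 163 nt this was the widest peak of the 3 genes. Intron 5 (1176 nt) had the lowest log2 fold, 3.01, with a peak centred 27 nt upstream.

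Intron 6 of DGCR8 (236 nt) had the narrowest peak of the gene, of 34 nt, centred 39 nt upstream (log2 fold 3.69). Intron 7 (838 nt) had a peak centred 50 nt upstream (4.79). Intron 8 (1805 nt) carried a pair of peaks with a gap of 10 nt. The one centred 32 nt upstream had a log2 fold of 4.01, and the one centred 114 nt upstream had 4.97. The peak farther from the acceptor was the higher one here, unlike in CAD intron 17. Intron 10 (314 nt) had a peak centred 39 nt upstream (5.24), and intron 13 (1021 nt) a peak centred 41 nt upstream (4.09). From intron 6 on, no DGCR8 peak reached an exon.

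Measured from the acceptor, the median position of the peaks of the 3 genes together was close to that of SF3B4 peaks in other genes. In CAD the median midpoint was 22.5 nt upstream of the first exon base, with a range from 144 nt to 2 nt upstream. In PCNX3 it was 30 nt upstream, from 58 nt to 1 nt. In DGCR8 it was 39 nt upstream, from 114 nt upstream to 12 nt into the exon. The ranges of the 3 genes overlapped. Over the 35 peaks together the median was 32 nt upstream, with quartiles at 40 and 19 nt. Among 3196 peaks of other protein-coding genes within 1000 nt of an acceptor it was 31 nt, with quartiles at 42.2 and 16 nt. The stretch 10 to 60 nt upstream held 27 of the 35 midpoints (77.1%, 95% Wilson interval 61.0 to 87.9%), as 8 of 12 in CAD, 11 of 12 in PCNX3 and 8 of 11 in DGCR8. The other genes had 67.7% of 3364 midpoints there (66.1 to 69.2%). Peaks are not replicates, so these intervals cover counting error only, and neither likeness nor difference is read from them. Within the wider window at the acceptor lay 33 of the 35 peaks, against 85.6% in the other genes.

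**Figure D2:**
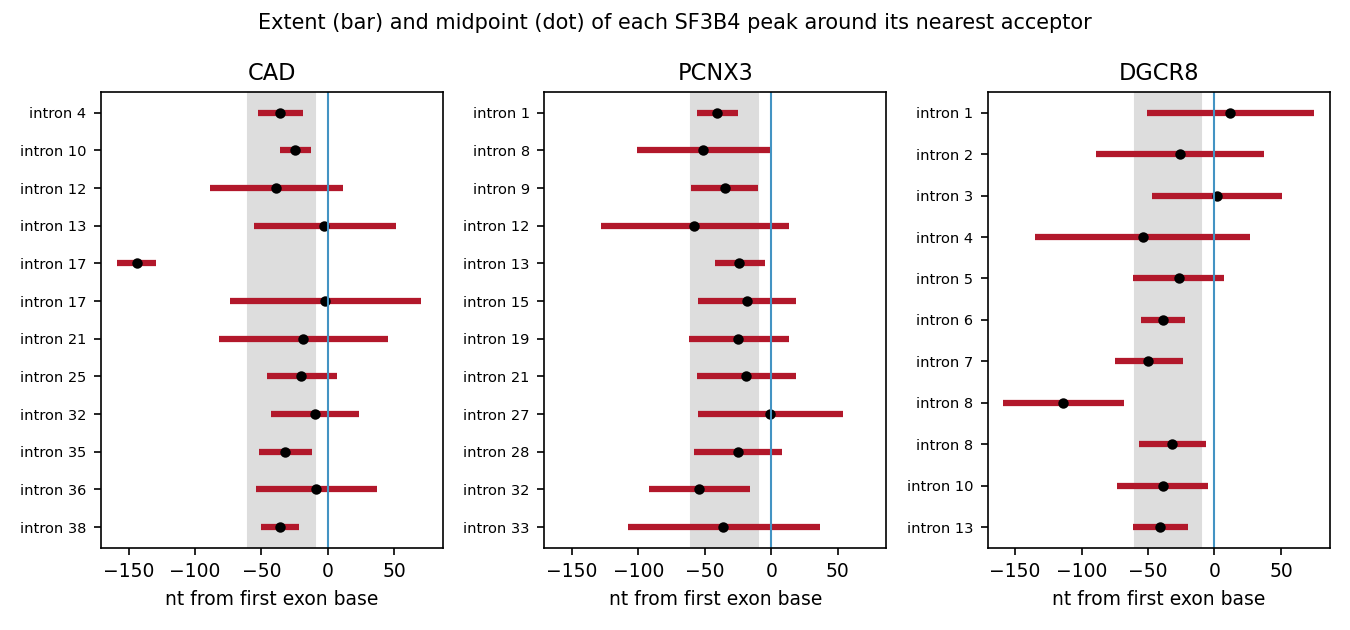
Each SF3B4 peak of CAD, PCNX3 and DGCR8 around its nearest acceptor. The horizontal axis is the distance in nt from the first exon base (blue line), bars span the peak, black dots are midpoints, and grey marks 10 to 60 nt upstream. Most dots fall in the grey stretch, and the 2 peaks far to the left are those at CAD intron 17 and DGCR8 intron 8.

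The peaks differed in how far they reached into the exon. Of the 35, 20 crossed the acceptor and 15 lay wholly within an intron. In CAD 7 of 12 crossed it, in PCNX3 8 of 12 and in DGCR8 5 of 11. The share of crossing peaks over all SF3B4 peaks is not given here, so these counts are not read as particular to the 3 genes. Peaks that stayed within the intron were mostly narrow, such as those at CAD intron 38 (29 nt, from 50 to 22 nt upstream), PCNX3 intron 1 (32 nt, from 56 to 25 nt) and DGCR8 intron 6 (34 nt, from 55 to 22 nt). These 3 spans cover nearly the same stretch, but they are picked examples. Other peaks within introns lay elsewhere, as from 159 to 129 nt upstream in CAD intron 17 and from 92 to 16 nt in PCNX3 intron 32. The median width was 60.5 nt in CAD, 76 nt in PCNX3 and 69 nt in DGCR8, against 71 nt in other genes.

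The lengths of bound and unbound introns were ordered differently in the 3 genes. In PCNX3 the bound introns had a median of 349.5 nt (quartiles 220 and 377.8 nt, n = 12) and the unbound ones 147.5 nt (104 and 453.8 nt, n = 22). The quartiles of the bound introns lay inside those of the unbound ones. Of 12 PCNX3 introns under 150 nt, only intron 33 was bound, whereas 10 of 16 from 150 nt to under 500 nt were. The 5 introns from 500 nt to under 2000 nt were unbound, so the bound introns lay in the middle of the range with the exceptions of introns 33 and 27. In CAD the bound introns had a median of 204 nt (157.5 and 368.5 nt, n = 11) and the unbound ones 234 nt (172.8 and 422 nt, n = 32). Those ranges overlapped, and 3 of 8 CAD introns under 150 nt were bound (introns 10, 32 and 36, of 133, 98 and 102 nt). In DGCR8 the bound introns had a median of 929.5 nt, from 164 to 5303 nt, and the 3 unbound ones 1491 nt. All 4 DGCR8 introns under 500 nt were bound. In the other protein-coding genes with an SF3B4 peak the medians were 606 nt for 2908 bound and 886 nt for 23869 unbound introns. There 10.9% of introns under 150 nt were bound (95% Wilson interval 9.99 to 11.9%), 14.5% from 150 nt to under 500 nt, 10.3% from 500 nt to under 2000 nt and 8.71% at 2000 nt or more. The ratio of the medians, bound over unbound, was 2.37 in PCNX3, 0.623 in DGCR8 and 0.872 in CAD, but in CAD it was 1.60 when only peaks of log2 fold 4 or more were used. With only peaks of −log10 p 10 or more it was 1.40 in PCNX3 and 0.235 in DGCR8, and with midpoints in the last 50 nt of the intron it was 1.47 in PCNX3. Some length classes of the 3 genes hold fewer than 10 introns, and no test was run.

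**Figure D3:**
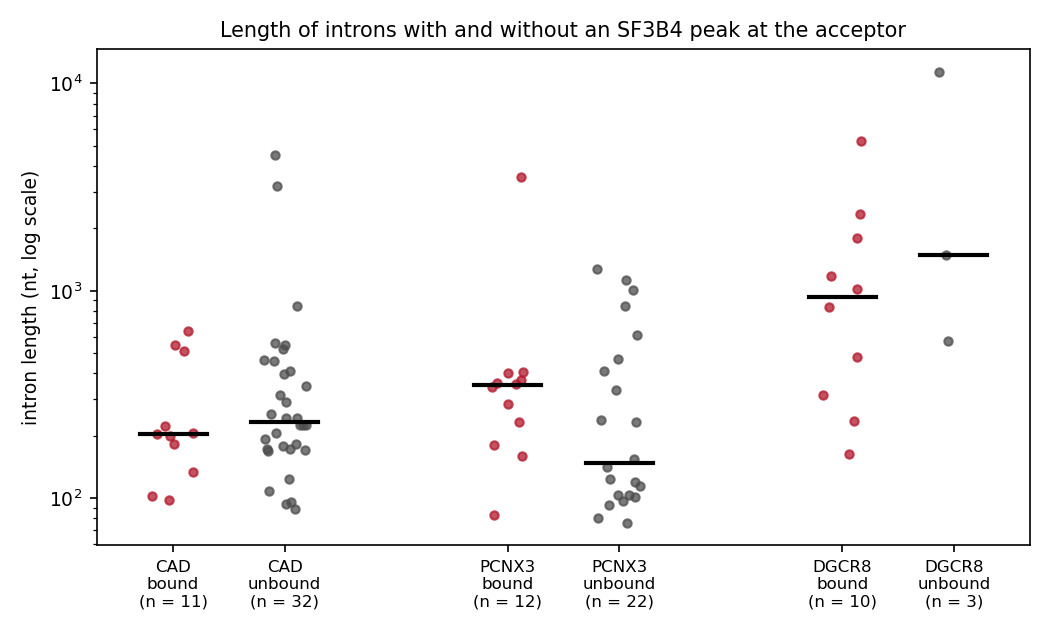
Length of each intron of CAD, PCNX3 and DGCR8 with (red) and without (grey) an SF3B4 peak at its acceptor. The vertical axis is intron length in nt on a log scale, each dot is 1 intron, and black bars are medians. Of 12 PCNX3 introns under 150 nt, 11 are in the unbound column, while in CAD both columns reach down to about the same length.

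The position of bound introns along the transcript depended on which peaks were used. As a percentage of the number of introns, the median rank of bound introns was 48.8 in CAD and 50 in PCNX3, against 52.3 and 51.5 for unbound ones. In DGCR8 it was 42.3 for bound and 84.6 for the 3 unbound introns, which are the ninth, eleventh and twelfth. With only peaks of log2 fold 4 or more, the median rank of bound introns was 69.8 in CAD, 36.8 in PCNX3 and 57.7 in DGCR8, against 48.8, 55.9 and 46.2 for unbound ones. The order thus turned in CAD and DGCR8. With only peaks of −log10 p 10 or more it turned in CAD (66.3 for bound and 48.8 for unbound introns) and PCNX3 (67.6 and 48.5), so no position is set for the bound introns of these genes. The exon after a bound intron had a median length of 189 nt in CAD, 143.5 nt in PCNX3 and 151.5 nt in DGCR8. After an unbound intron it was 141.5 nt, 127 nt and 114 nt. In the other genes the order was the reverse, 116 nt after bound and 126 nt after unbound introns. The first 50 nt of the downstream exon had a median GC content of 56% after bound and 58% after unbound introns in CAD. In PCNX3 the values were 64% and 62%, in DGCR8 50% and 48%, and in the other genes 54% and 52%. Of the 3 genes, PCNX3 had the highest medians at these exon starts in both classes. The last 50 nt of the upstream exon had lower medians at bound introns in all 3 genes. They were 54% and 56% in CAD, 59% and 64% in PCNX3 and 50% and 54% in DGCR8. In the other genes they were 54% and 52%.

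Annotated microRNA hairpins lie inside PCNX3 and DGCR8, and an SF3B4 peak touched 1 in each gene. MIR4690 sits in PCNX3 intron 33, at chr11:65636310-65636369, and its hairpin of 60 nt lay wholly within the peak there. Its mature products are shown because both fall inside the peak. Their sequences are from RefSeq (GRCh38.p14), with the seed, bases 2 to 8, in capitals, and the seeds differ.
hsa-miR-4690-5p: gAGCAGGCgaggcugggcugaa
hsa-miR-4690-3p: gCAGCCCAgcugaggccucug

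In DGCR8 the hairpin of MIR3618 lies in exon 2, upstream of the start codon, at chr22:20085746-20085833. The peak at the acceptor of intron 1, chr22:20085636-20085762, reached 17 of its 88 nt. The mature miR-3618 lay 35 nt from the nearest peak. The mature products of MIR1306, also in exon 2, lay outside the peaks as well, at 310 nt for miR-1306-5p and 350 nt for miR-1306-3p.

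The second deposited value, read as log2 fold over input, had a median of 4.02 in CAD (3.17 to 5.86), 3.99 in PCNX3 (3.08 to 5.47) and 4.09 in DGCR8 (3.01 to 5.53). Over all SF3B4 peaks the median was 3.93. The first value, read as −log10 p, had a median of 10.8 in CAD, 10.9 in PCNX3 and 8.37 in DGCR8, against 8.92 over peaks of other protein-coding genes. CAD and PCNX3 were above and DGCR8 below that median. Of the 35 peaks, 30 shared both values exactly with at least 1 other SF3B4 peak. The share of such ties over the whole list was not counted, so this is not read as particular to the 3 genes. In CAD, for example, the peak at intron 21 and the far one in intron 17 had the same log2 fold of 3.24 and −log10 p of 7.53. The highest log2 fold among the 35 was 5.86, at CAD intron 35, against 7.60 over the whole list.

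G4PID, the quadruplex-directed ligase, had 0 of its 270 peaks in CAD, PCNX3 or DGCR8. The background for a G4PID peak was 0.496% of 19940 protein-coding genes. The nearest G4PID peak on the same strand lay 109807 nt from PCNX3, in MALAT1, 1149076 nt from CAD, in FOSL2, and 17565117 nt from DGCR8, in LGALS1. Because a list holds only peaks past the authors' thresholds, these genes are not shown to be free of the ligase.

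Each listed gene of the same pathways carried fewer SF3B4 peaks than its member with many peaks, which was picked for them. The background was an SF3B4 peak in 8.88% of protein-coding genes. RNA amount was not measured, and its part in these counts was not tested. For pyrimidine and thymidine nucleotide synthesis, 5 of 17 genes besides CAD had one. CTPS1, which makes CTP from UTP, had 3 (highest log2 fold 5.05). The uridine-cytidine kinase UCK1 had 2 (4.84). DHODH, the mitochondrial enzyme after CAD, had 1 (4.24), as did the thymidylate kinase DTYMK (4.79) and the thymidine kinase TK1 (3.64). UMPS, which completes UMP, had 0. The thymidylate synthase gene TYMS and the ribonucleotide reductase genes RRM1, RRM2 and RRM2B had 0 as well. A peak at an acceptor of the nucleoside diphosphate kinase gene NME2 (5.97) was counted under the readthrough gene NME1-NME2. Together these 17 genes had 9 of 136 introns bound, against 1.65% of introns in all protein-coding genes. None of the 17 had more than the 3 of CTPS1.

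In the microRNA pathway 9 of 18 genes besides DGCR8 had an SF3B4 peak. DROSHA, the catalytic partner of DGCR8, had 0 over 34 introns, and DICER1, which cuts the exported precursors, had 0 over 28. The Microprocessor-associated helicases had more, with 7 peaks in DDX17 (highest log2 fold 5.50, at 4 bound introns) and 6 in DDX5 (6.09, at 6 bound introns). RAN, the GTPase that drives nuclear export, had 4 (5.09), and XPO5, the exporter of precursors, had 3 (5.01). SRRT, which links capped RNA to the Microprocessor, had 2 (4.79). TARBP2, PRKRA, TNRC6A and the RNA editor ADAR had 1 each. The Argonaute genes AGO1, AGO2, AGO3 and AGO4 had 0. Together these 18 genes had 21 of 309 introns bound, against the same 1.65% in all protein-coding genes. Of the pecanex family, PCNX2 had 1 peak over 33 introns (4.93), and PCNX1 (35 introns) and PCNX4 (9 introns) had 0, against 12 in PCNX3. PCNX1, PCNX2 and PCNX3 have similar numbers of introns, but PCNX3 was picked for its many peaks, so nothing is read from the difference. None of the listed genes in the 3 lists had a G4PID peak.

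Among all protein-coding genes, 1655 had at least 1 bound intron and 969 of these had exactly 1. Only 4 had 10 or more, namely FANCA, PCNX3, CAD and DGCR8. Leaving out the 3 themselves, the nearest genes to each, by number of bound introns and then by share, were RBM5, RHOT2 and HNRNPH1, with 9 bound introns each. RBM5, which encodes a splicing regulator, had 9 of 24 introns bound (37.5%), close to the share in PCNX3. HNRNPH1, which encodes a G-tract binding hnRNP, had 9 of 12 (75%), close to the share in DGCR8. RHOT2, which encodes a mitochondrial GTPase, had 9 of 18 (50%). Of 1164 genes with 10 or more introns and an SF3B4 peak, 0 had a higher share of bound introns than DGCR8. Of the same genes, 35 had a higher share than PCNX3 and 94 than CAD, and the median share of the 1164 was 8.33%. Below 10 introns, shares above that of DGCR8 occurred, as in CSNK1D (7 of 8, 87.5%) and HNRNPA1 (7 of 9, 77.8%). These ranks rest on the peaks that chose the 3 genes, so nothing is read from them. In RBM5 the bound introns were shorter than the unbound ones (medians 617 and 951 nt), while in RHOT2 they were longer (104 and 86 nt). In HNRNPH1, the nearest to DGCR8, they were also longer (586 and 149 nt), the other way round from DGCR8.

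**Figure D4:**
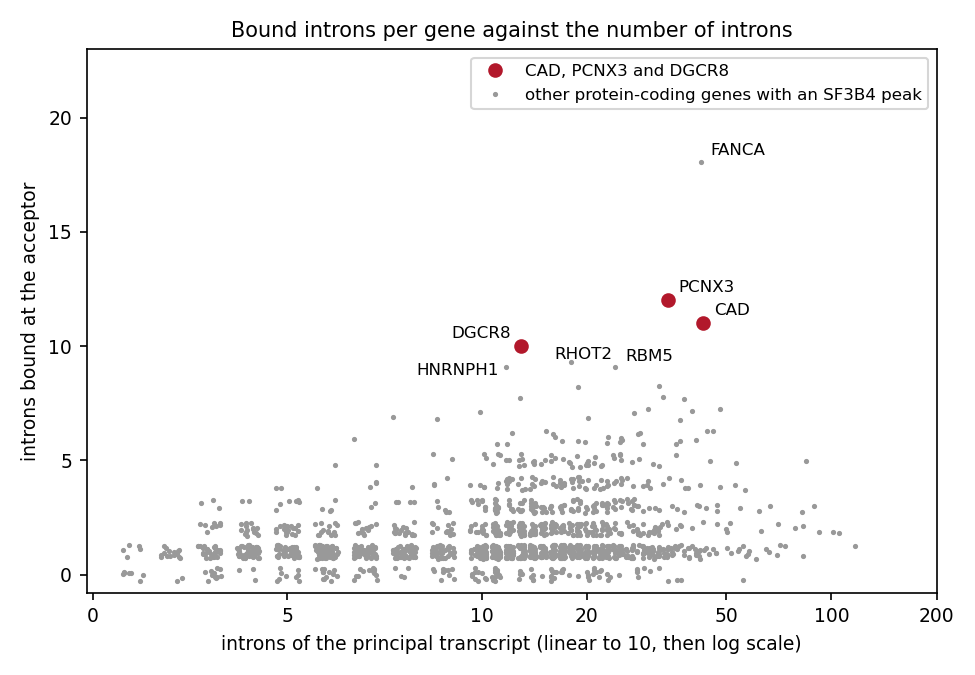
Introns bound by SF3B4 at the acceptor against the number of introns, for every protein-coding gene with an SF3B4 peak. The horizontal axis is linear up to 10 and logarithmic above, grey dots are other genes shifted slightly at random to show overlaps, and red dots are CAD, PCNX3 and DGCR8. FANCA with 18 bound introns stands highest, then PCNX3 with 12, CAD with 11 and DGCR8 with 10, and DGCR8 has the fewest introns of the 4.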

How the data were processed

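The submitters' processing notes name cutadapt 3.4, STAR 2.7.0d and the builds hg19 and hg38. The sources used here do not give the peak caller, its filters, the use of molecular identifiers, the treatment of multiply mapping reads or how the libraries of an antibody were joined. Each list deposited by the authors has 2 values per peak and no header. From column order and range, the first (above 5) was taken for the −log10 p-value and the second (above 3) for the log2 fold over input, both as deposited.

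Positions were compared with GENCODE 29 on hg38. A peak went to the gene of its strand holding its midpoint, protein-coding first. The principal transcript had the best APPRIS rank, then the longest coding sequence. No test was run, since peaks and introns are not replicates. Shares have Wilson intervals at the 95% level. Intron calls were checked on simulated introns, all longer than most introns of CAD and PCNX3, so calls in short introns were not checked. Named genes were the 3 genes, members of 3 pathway lists and the 3 nearest genes by bound introns. FANCA, CSNK1D, HNRNPA1, genes around the peak limit and genes with the nearest G4PID peak were named after their values were seen. Genes and lists were chosen with earlier results of these data known. Alternatives changed the peak threshold, the window, the point of the peak, the overlap, the merging of peaks and the transcript set. Python 3.11.15, numpy 2.4.6, scipy 1.17.1 and matplotlib 3.10.9 were used.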

Additional observations from a re-analysis of the deposited data

How the results depend on the processing

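With only peaks of log2 fold 4 or more, CAD had 6 peaks and 6 bound introns, PCNX3 6 and 6, and DGCR8 7 and 6. With only peaks of −log10 p 10 or more, PCNX3 had 6 and DGCR8 3 bound introns. With peaks within 10 nt merged, DGCR8 had 10 peaks, below the limit of 11 that chose the genes. With the 3' end of a peak in place of its midpoint, CAD and DGCR8 had 6 bound introns each. The median position was then 9 nt past the first exon base in CAD and 10.5 nt in PCNX3, since that end lies downstream of the midpoint. In DGCR8 it was 5 nt upstream, against 39 nt upstream with midpoints. The ratio of median lengths of bound over unbound introns in CAD, 0.872, turned to 1.60 with log2 fold 4 or more and to 1.60 with the 3' end. In PCNX3 the ratio, 2.37, was 1.55 with log2 fold 4 or more, 1.40 with −log10 p 10 or more and 1.47 with midpoints in the last 50 nt of the intron. In DGCR8 it was 0.235 with −log10 p 10 or more, against 0.623. The order of median ranks, lower for bound introns in the 3 genes, turned in 7 cases. With log2 fold 4 or more, the bound median was 69.8% of the introns in CAD (unbound 48.8%) and 57.7% in DGCR8 (46.2%). With −log10 p 10 or more it was 66.3% in CAD (48.8%) and 67.6% in PCNX3 (48.5%). With midpoints in the last 50 nt it was 55.9% in PCNX3 (50%) and 53.8% in DGCR8 (50%), and with the 3' end 57.7% in DGCR8 (30.8%). The cause of these changes was not tested. In the remaining 62 alternative values, neither a direction turned nor a count or length ratio moved by over 1.5 times. No paired analysis was possible because the lists hold no value per library, and for the same reason no replicate could be left out. Depth is unknown, so an intron without a listed peak is not shown to be unbound.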
